A study of Mus musculus with 12 samples.

Results

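The *Bex* and *Tceal* genes are small genes grouped in one region of the mouse X chromosome, and 8 of them are described here, *Bex1*, *Bex2*, *Bex4*, *Tceal1*, *Tceal3*, *Tceal5*, *Tceal6* and *Tceal8*, out of 24627 genes in the count files and 1071 X‐linked ones. They were taken by symbol, and they were chosen by their family membership with their DOX responses in these libraries already known, so each member's response to DOX is given as a description and without a p‐value. *Bex3*, *Tceal7* and *Tceal9*, which lie among them, and *Bex6*, an autosomal relative, were not chosen and serve for comparison. The BEX proteins (brain expressed, X‐linked) are short, mostly unstructured proteins that have been linked to neurotrophin receptor signalling and to cell cycle exit in neurons. The TCEAL proteins are named for their likeness to the transcription elongation factor TFIIS, which lets stalled RNA polymerase II resume, and both groups are placed in 1 superfamily. The genes are best known for expression in brain, and *Bex1* is also known as *Rex3*, a gene of embryonal carcinoma cells.

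The libraries came from J1 mouse ES cells, which are XY and so carry a single X, taken at day 2 of differentiation by LIF withdrawal. In each of 3 lines the promoter of the endogenous *Xist* gene was replaced by a TetO promoter that doxycycline (DOX) activates. The lines are called FL, ΔA and ΔB+C after the *Xist* transcript they carry. FL makes the full‐length transcript, ΔA lacks repeat A and ΔB+C lacks repeats B and C. *Xist* RNA coats the X it is made from and is known to silence genes on it, and repeat A is known to be needed for that silencing. Cultures received 1.5 µg/ml DOX or none (noDOX), with 2 replicates in each of the 6 groups and 12 libraries in all. ΔB+C was derived from FL by CRISPR/Cas9 and picked as a clone, whereas ΔA is a separate line made earlier, so a difference between lines without DOX cannot be told apart from a difference between clones. The deletion in each mutant is present in its noDOX cells as well. ΔB+C DOX replicate 2 was made from 100 ng of RNA by a low input method and every other library from 1000 ng. Since the cultures were sequenced in bulk, fewer cells expressing a gene and less RNA per cell cannot be told apart. By RNA FISH, the study found a *Xist*‐coated X in only a part of the cells of each DOX culture. That share was higher in each ΔB+C DOX replicate than in either FL one. No value here is adjusted for it.

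Values are CPM, each library being scaled by its total and by a factor taken from autosomal genes. Library totals ran from 31337490 to 41240470 counts, and 3 counts, taken as the smallest detectable number, correspond to 0.0729 to 0.0948 CPM, counting error only. *Xist* lay between 2.48 and 8.27 CPM in the 6 noDOX libraries and between 570.1 and 1791 CPM in the 6 DOX libraries, as the DOX labels say. These values do not check the deletions. The pluripotency genes *Pou5f1* and *Sox2* were at 1149 CPM or more and 282 CPM or more in every library. Of the 6 neural markers, *Nes*, *Tubb3*, *Map2*, *Sox1* and *Pax6* were above 3 CPM in every library and *Dcx* was at 1.19 CPM or less. Libraries with the same replicate number deviated together across autosomal genes, and a second fit therefore took the replicate number as a block. Its calls are given wherever they differ for a member.

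The start regions of the members share a feature that the choice did not use. RefSeq promoter sequences (GRCm38.p6, 250 bases before to 50 bases after the start, both strands searched) were held for all 8 members. Letters were compared after the members' promoters had been inspected, so the match is a description. In 7 of the 8, all but *Bex2*, the pentamer TGACG on the strand of the gene was followed 7 or 9 bases later by CACGTG. The word CACGTG reads the same on both strands. The windows are shown because this arrangement was found in 23 of 27025 genes (0.0851%) and in 12 of 1046 X‐linked genes (1.15%), while CACGTG alone was found in 2187 genes (8.09%). Capitals mark the 2 words, and positions are on the X chromosome.
*Bex1* (minus strand, chrX:136215509-136215533): gcttcTGACGcaagtggCACGTGac
*Bex4* (plus strand, chrX:136138970-136138994): gcttcTGACGcaagtggCACGTGac
*Tceal3* (plus strand, chrX:136666361-136666385): tcgggTGACGcggtgttCACGTGac
*Tceal5* (minus strand, chrX:136203892-136203916): actggTGACGttcctgtCACGTGat
*Tceal6* (minus strand, chrX:135210694-135210718): tagggTGACGctttgctCACGTGac
*Tceal8* (minus strand, chrX:136172227-136172251): attgaTGACGcgatcctCACGTGac
*Tceal1* (plus strand, chrX:136707962-136707988): agctgTGACGcgctcccctCACGTGac
The relative *Bex3* held the arrangement too (plus strand, chrX:136270261-136270287): ggcagTGACGcagggccctCACGTGac

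The spacing was 7 bases in 6 members and 9 bases in *Tceal1* and *Bex3*. For *Tceal3* the start is the one in RefSeq, which lies within the longer GENCODE gene. The windows of *Bex1* and *Bex4* were identical over their 25 bases. The element ended between 10 bases before and 22 bases after the annotated start in the members. The 4 other X‐linked genes with it were *Armcx1*, *Armcx4*, *Armcx6* and B230119M05Rik. The 8‐base word CACGTGAC, which overlaps the second word, was held on either strand by the same 7 members and by 689 genes (2.55%). These counts say nothing of which factor binds.

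In GENCODE vM21, on the same build as the counts (mm10), the 8 members lie on the X between 135208687 and 136711478, a stretch of 1502792 bases. *Tceal6* (135208687 to 135210687, minus strand) stands apart at the proximal end. *Bex2* (136066564 to 136068236), *Bex4* (136138996 to 136140443), *Tceal8* (136168984 to 136172342), *Tceal5* (136200948 to 136203876) and *Bex1* (136213972 to 136215513) follow each other closely, with only *Bex4* on the plus strand. *Tceal3* (136590842 to 136668378) and *Tceal1* (136707982 to 136711478) lie on the plus strand at the distal end. The 5′ part of *Bex1* overlaps *Tceal7*, on the other strand, over 735 bases (136214779 to 136215513), and since the counting is not stated to use strand, reads there cannot be told apart. At the 150‐base read length, 80.7% of the 150‐base windows of the *Tceal6* transcript lay within 5 mismatches of *Tceal3* or *Tceal5*. The share was 20.5% for *Tceal3*, 23.4% for *Tceal5*, 25.2% for *Bex1*, 29.4% for *Bex2* and 17.3% for *Bex4*, each against another family gene. For *Tceal1* and *Tceal8* it was 0. Windows found without a mismatch in another gene made up 15.0% for *Bex4*, 12.3% for *Bex1*, 10.7% for *Tceal6* and 8.5% for *Tceal5*. They made up 2.1% for *Tceal3* and 1.46% for *Bex2*. The counts of *Tceal3*, *Tceal5* and *Tceal6* are therefore uncertain as to which of the 3 genes a read came from. Those of *Bex1*, *Bex2* and *Bex4* are uncertain in the same way.

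Levels differed widely within the family. Per kilobase of exon and over all 12 libraries, *Bex1* had a mean of 295.8 CPM per kb ± 104.6 (SD, n = 12), *Bex4* 175.7 ± 63.7, *Bex2* 47.1 ± 12.9 and *Tceal8* 32.6 ± 13.6. *Tceal5* followed at 2.87 ± 1.64 CPM per kb, *Tceal6* at 0.898 ± 0.724, *Tceal1* at 0.766 ± 0.333 and *Tceal3* at 0.275 ± 0.194. Of the relatives, *Bex3* was at 243.1 ± 53.1, *Tceal9* at 118.7 ± 47.9 and *Tceal7* at 0.883 ± 0.274 CPM per kb, and *Bex6* had 1 count in a single library. Among these 12 genes, each exceeded the next lower one in all 12 libraries at most steps of this order. The exceptions were *Bex1* over *Bex3* (8 libraries), *Tceal6* over *Tceal7* (5) and *Tceal7* over *Tceal1* (9), so *Bex1* and *Bex3*, and the 3 genes near 1 CPM per kb, were not separated by their spread. *Bex1* alone made up 51.6% to 62.6% of the summed CPM of the 8 members.

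Low counts, taken as a mean under 5 CPM, were found in 4 members, *Tceal5* (3.63 CPM), *Tceal1* (2.15 CPM), *Tceal6* (1.00 CPM) and *Tceal3* (0.976 CPM). By the filter, 1 CPM of the unscaled library total in at least 6 libraries, *Tceal3* was left out with 5 libraries, so 7 of the 8 members were tested. *Tceal6* passed it with exactly 6, the noDOX libraries, and so passed only through the level without DOX. The lowest count of any member in any library was 8.

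**Figure D1:**
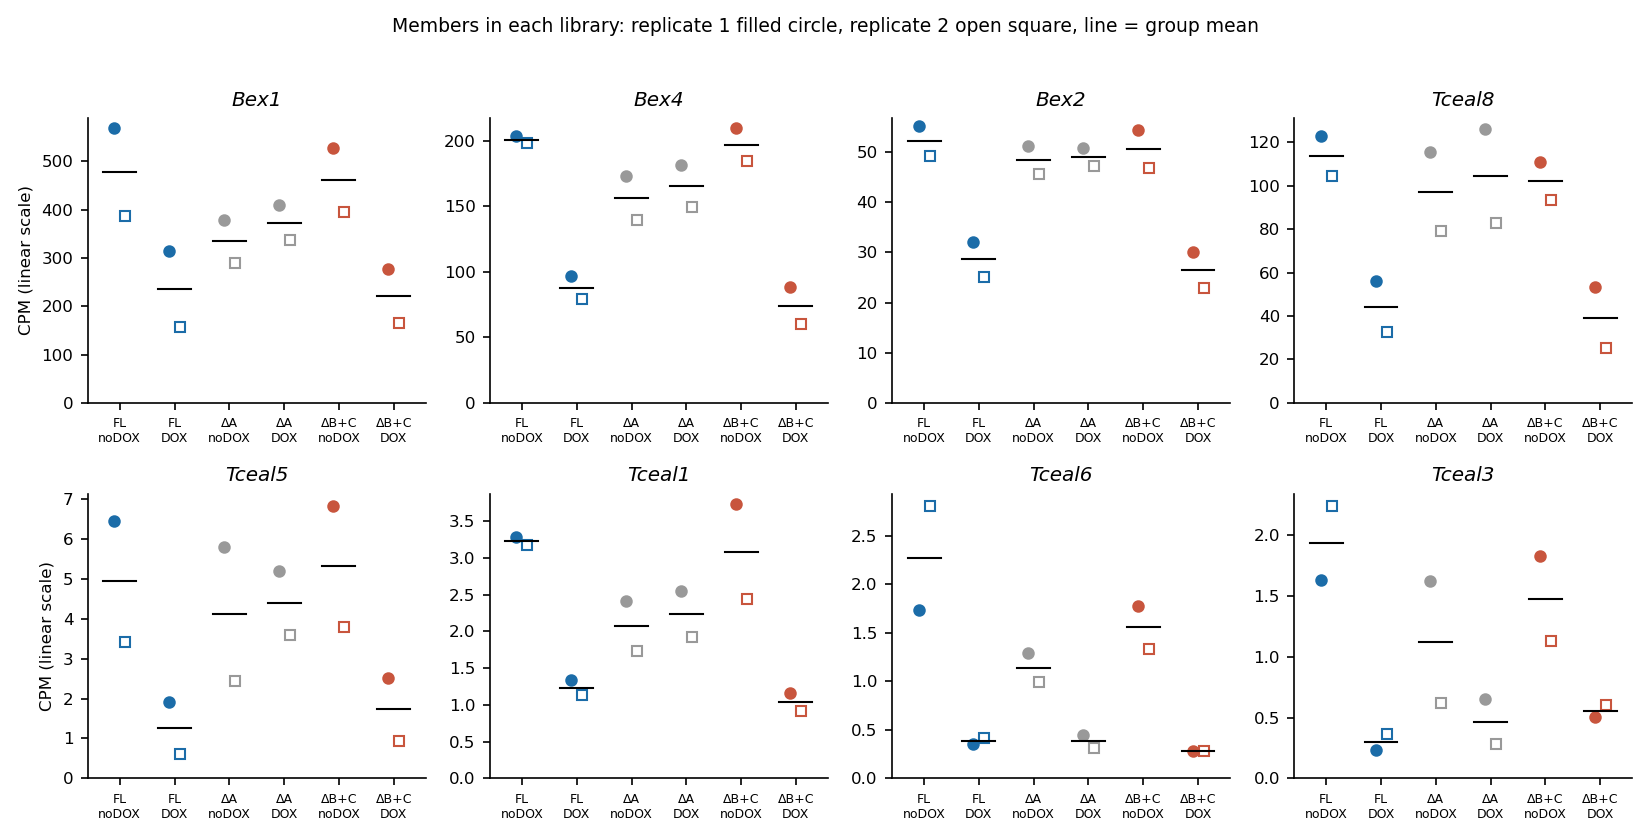
CPM of the 8 members (linear axis from 0, a scale for each gene) in the 12 libraries, by line and treatment; filled circles are replicate 1, open squares replicate 2 and lines the means of 2 libraries. In FL and ΔB+C both DOX libraries lie below both noDOX libraries for each gene, and in ΔA this is so for *Tceal6* alone.

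All 8 members were lower in both DOX libraries than in both noDOX libraries of FL and of ΔB+C, and in ΔA this held for *Tceal6* alone. Of all tested genes, 25.7% showed this order of libraries in FL, 23.3% in ΔB+C and 12.5% in ΔA. Of the 464 tested X‐linked genes apart from *Xist*, which include the 7 tested members, it was 88.1%, 82.1% and 35.6%. The summed CPM of the members was 963.9 and 751.0 in FL noDOX replicates 1 and 2 and 503.7 and 296.2 with DOX. In ΔB+C the sum was 916.7 and 728.4 without DOX and 452.6 and 276.4 with it. In ΔA it was 729.7 and 560.4 without DOX and 777.8 and 622.2 with it, so there the DOX libraries fell within the range of the noDOX libraries or above it. As a share of all X‐linked counts apart from *Xist*, the members went from 3.33% and 2.72% to 2.65% and 1.81% in FL, and from 3.22% and 2.67% to 2.48% and 1.83% in ΔB+C. In ΔA the share was 2.51% and 2.06% without DOX and 2.72% and 2.37% with it.

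*Bex1*, the most abundant member and a gene used as a marker of neuronal differentiation and regeneration, was at 569.2 and 387.2 CPM in FL noDOX replicates 1 and 2 and at 315.2 and 156.7 CPM with DOX. The ΔB+C libraries had 527.5 and 395.4 CPM without DOX and 276.4 and 165.6 CPM with DOX. In ΔA the noDOX libraries had 379.1 and 290.1 CPM and the DOX libraries 410.4 and 336.6 CPM, which overlapped. The level left with DOX was 49.3% of noDOX in FL and 47.9% in ΔB+C, with log2 (fold changes) of −1.02 ± 0.36 (SE) and −1.06 ± 0.36, and it was 0.16 ± 0.36 in ΔA. Without DOX replicate 1 the FL value was −1.61, and without DOX replicate 2 it was −0.60.

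*Bex4*, whose product has been described at microtubules, had, with *Bex2*, the smallest errors of the members. Its noDOX libraries had 203.7 and 198.3 CPM in FL, and its DOX libraries 96.6 and 79.5 CPM. ΔB+C cells went from 209.9 and 184.3 CPM to 88.3 and 60.1 CPM. In ΔA it was at 172.9 and 139.6 CPM without DOX and at 181.7 and 149.4 CPM with it. The log2 (fold change) was −1.19 ± 0.19 in FL, −1.41 ± 0.19 in ΔB+C and 0.08 ± 0.19 in ΔA.

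*Bex2* had the smallest difference of the members in FL and in ΔB+C. It was at 55.2 and 49.2 CPM in FL noDOX and at 32.2 and 25.04 CPM with DOX (log2 difference −0.87 ± 0.16). In ΔB+C it went from 54.3 and 46.8 CPM to 30.0 and 22.9 CPM (−0.93 ± 0.17). In ΔA its 4 libraries lay between 45.7 and 51.2 CPM, and the log2 (fold change) was 0.02 ± 0.16.

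*Tceal8*, the only *Tceal* member above 5 CPM, was at 122.7 and 104.6 CPM in FL noDOX and at 55.9 and 32.5 CPM with DOX. ΔB+C cells were at 110.7 and 93.2 CPM without DOX and at 53.5 and 25.1 CPM with it, the low input library being the lower one. Its ΔA libraries had 115.4 and 79.2 CPM without DOX and 126.0 and 82.9 CPM with DOX. The log2 (fold change) was −1.36 ± 0.38 in FL, −1.37 ± 0.38 in ΔB+C and 0.10 ± 0.38 in ΔA. Without the low input library the ΔB+C value was −0.93, and without replicate 1 of the same group it was −2.02.

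*Tceal5* had 6.45 and 3.42 CPM in FL noDOX and 1.92 and 0.603 CPM with DOX, the last from 23 counts. In ΔB+C it went from 6.83 and 3.801 CPM to 2.51 and 0.948 CPM. In ΔA it was at 5.81 and 2.44 CPM without DOX and at 5.20 and 3.60 CPM with it. Its log2 (fold change) of −1.98 ± 0.67 in FL and −1.60 ± 0.66 in ΔB+C had the largest errors of the tested members, and in ΔA it was 0.09 ± 0.64. Without DOX replicate 1 the value was −3.03 in FL and −2.48 in ΔB+C, and without DOX replicate 2 it was −1.36 and −1.08.

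*Tceal1* had 3.29 and 3.17 CPM in FL noDOX and 1.34 and 1.13 CPM with DOX. In ΔB+C it went from 3.73 and 2.43 CPM to 1.15 and 0.917 CPM, and in ΔA from 2.41 and 1.73 CPM to 2.55 and 1.93 CPM. The log2 (fold change) was −1.39 ± 0.29, −1.57 ± 0.30 and 0.11 ± 0.29 in the same order. Its reads were not shared with another family gene. It had 29 to 141 counts per library.

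*Tceal6*, the member at the proximal end, was the one whose DOX libraries lay below its noDOX libraries in all 3 lines. It had 71 and 100 counts in FL noDOX (1.73 and 2.81 CPM) and 12 and 16 counts with DOX (0.349 and 0.419 CPM). ΔB+C cells had 67 and 45 counts without DOX (1.77 and 1.34 CPM) and 11 and 9 counts with DOX (0.276 and 0.284 CPM). In ΔA it had 53 and 32 counts without DOX (1.29 and 0.987 CPM) and 18 and 10 counts with DOX (0.450 and 0.311 CPM). The log2 (fold change) was −2.54 ± 0.36 in FL, −2.46 ± 0.38 in ΔB+C and −1.56 ± 0.37 in ΔA, and 17.0%, 18.0% and 33.4% of the noDOX level was left. The ΔA value was the lowest of the 464 X‐linked genes in that line and was not called. Having passed the filter only through its noDOX libraries, *Tceal6* was favoured for a low value with DOX, so nothing is read from this place.

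*Tceal3*, with which *Tceal6* shares most of its sequence, had 67 and 80 counts in FL noDOX (1.63 and 2.24 CPM) and 8 and 14 with DOX (0.233 and 0.367 CPM). The ΔB+C libraries had 69 and 38 counts without DOX (1.83 and 1.13 CPM) and 20 and 19 with DOX (0.502 and 0.601 CPM). In ΔA it had 67 and 20 counts without DOX (1.63 and 0.617 CPM) and 26 and 9 with DOX (0.650 and 0.279 CPM), where DOX replicate 1 lay above noDOX replicate 2. In a fit of all 20921 genes with a count, its log2 (fold change) was −2.67 ± 0.55, −1.43 ± 0.52 and −1.26 ± 0.53 in FL, ΔB+C and ΔA. Counted together as 1 gene, an alternative chosen after seeing the data, *Tceal3* and *Tceal6* gave −2.61 ± 0.42 in FL, −1.87 ± 0.41 in ΔB+C and −1.41 ± 0.41 in ΔA. The sum does not change with the split of reads between these 2 genes, and its ΔA value was not called. Reads shared with *Tceal5* were not covered by the sum. In *Tceal5*, the other gene near *Tceal6* in sequence, the ΔA value was 0.09. The part of read sharing in the ΔA values was not tested.

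**Figure D2:**
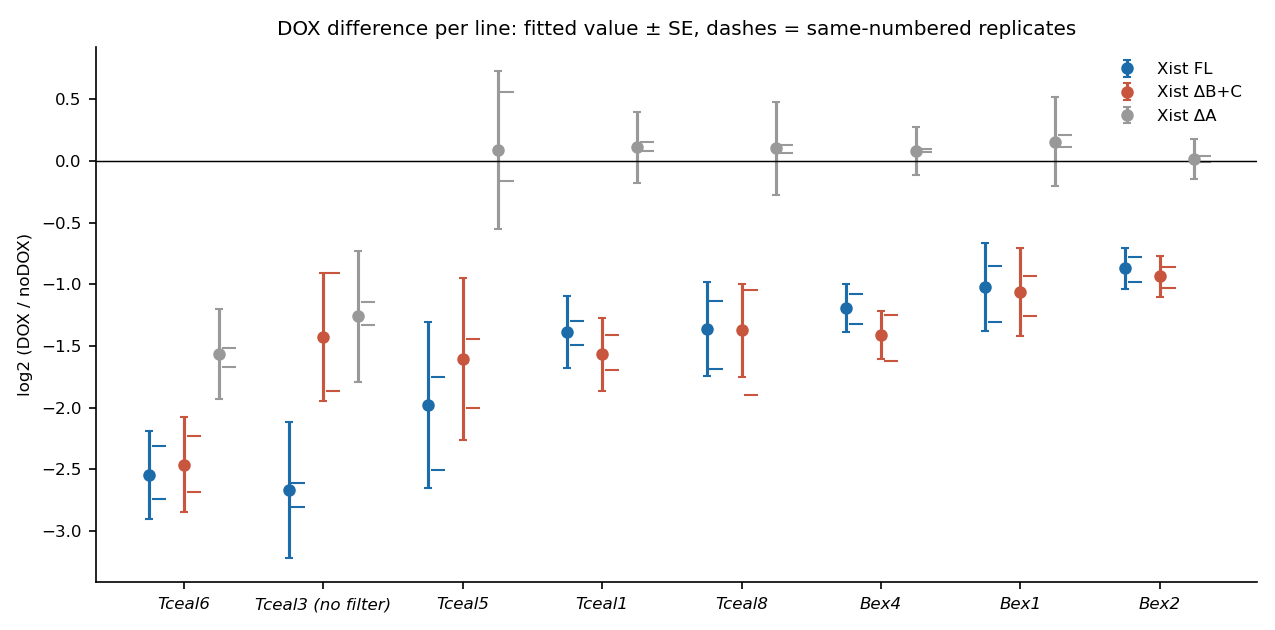
Log2 ratio of DOX to noDOX for the 8 members in the 3 lines; circles with bars are fitted values ± SE and dashes the ratios of same‐numbered replicates. FL and ΔB+C values lie between −0.87 and −2.67, and ΔA values lie near 0 except for *Tceal6* (−1.56) and *Tceal3* (−1.26, fitted without the filter).

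With edgeR's quasi‐likelihood test and an adjusted p under 0.05, *Bex2*, *Bex4* and *Tceal6* were called lower in FL, 3 of the 7 tested members, *Tceal6* having passed the filter only through its noDOX libraries, against 1.09% of all genes and 27.2% of the X‐linked ones. *Tceal1* joined them in ΔB+C, 4 of 7, against 2.13% and 34.3%. With the replicate block all 7 were called lower in both lines, against in FL 8.13% of all genes and 80.6% of the X‐linked ones and, in ΔB+C, 12% and 75.6%. In ΔA 0 of 7 were called with either fit, against 0% of all genes and 0.0152% with the block. DESeq2 and limma‐voom also called 0 there, and *Tceal6* was the single member with an unadjusted p under 0.05. As these contrasts were known when the members were chosen, nothing is read from the counts. The number called without the block fell when some single libraries were left out, among them libraries of another line. Such a fit leaves 1 library in a group, so the fall does not show that any single library carried the calls. The log2 values stayed negative for each member in both lines under each alternative run.

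The median log2 (fold change) over the 7 tested members was −1.36 in FL, −1.41 in ΔB+C and 0.09 in ΔA, beside −0.85, −0.78 and −0.14 for X‐linked genes and −0.01, 0.00 and 0.00 for all genes. Within the X chromosome the members were spread over much of the range. Ordered from the largest fall in FL, *Tceal6* was number 2 of 464, *Tceal5* 11, *Tceal1* 61, *Tceal8* 68, *Bex4* 97, *Bex1* 162 and *Bex2* 226. In ΔB+C the places were 2 for *Tceal6*, 34 for *Tceal5*, 37 for *Tceal1*, 54 for *Bex4*, 58 for *Tceal8*, 125 for *Bex1* and 167 for *Bex2*. Both orders put the *Tceal* members before *Bex1* and *Bex2*, but *Bex4* came before *Tceal8* in ΔB+C. The relative *Tceal7* stood at 166 in FL and 294 in ΔB+C, after *Bex1* in both. In ΔA *Tceal6* was number 1, and the other 6 tested members stood between 362 and 446, toward the end of the genes that did not fall. The FL and ΔB+C values come from different libraries, and no test of the orders was made. The places of *Tceal6* were favoured by the filter, which it passed only through its noDOX libraries.

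The relatives that were not chosen went the same way with smaller or like values. *Tceal9*, at 197.2 and 133.3 CPM in FL noDOX and at 91.8 and 45.4 CPM with DOX, had −1.27 ± 0.45 in FL, −1.18 ± 0.45 in ΔB+C and 0.04 ± 0.45 in ΔA. *Bex3*, also called *Ngfrap1* for its binding to the neurotrophin receptor NGFR, had −0.67 ± 0.18, −0.67 ± 0.18 and 0.15 ± 0.18. *Tceal7*, at 0.601 to 1.53 CPM, had −1.005 ± 0.34, −0.63 ± 0.34 and 0.19 ± 0.32. Of these 3, 0 were called in any line without the block, 3 were called lower in FL with it and 2, *Bex3* and *Tceal9*, in ΔB+C. *Ngfr* itself, an autosomal gene, had 0.53 ± 0.59 in FL and 0.86 ± 0.59 in ΔB+C. The autosomal TFIIS genes *Tcea1*, *Tcea2* and *Tcea3* had −0.22 ± 0.09, −0.23 ± 0.19 and 0.09 ± 0.32 in FL and −0.22 ± 0.09, −0.34 ± 0.19 and 0.14 ± 0.32 in ΔB+C, and 0 of the 4 autosomal genes were called with either fit.

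Between *Tceal6* and *Tceal1*, 21 other genes of the count files lie in the same stretch, and 8 passed the filter. In FL 4 of the 8 were called lower (7 with the block) and in ΔB+C 4 (6 with the block), with medians of −0.88 and −0.68. *Bhlhb9* (also *Gprasp3*), at −1.16 ± 0.13 in FL, had the lowest value there, and *Arxes1*, at −1.23 ± 0.14, the lowest in ΔB+C. *Nxf7*, an RNA export factor gene with 12 to 66 counts, had positive values of 0.23 ± 0.63 and 0.53 ± 0.59. In ΔA the 8 lay between −0.27 and 0.05. The value of *Tceal6* there was −1.56, below each of them. It was favoured by the filter, which *Tceal6* passed only through its noDOX libraries, so nothing is read from this place.

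**Figure D3:**
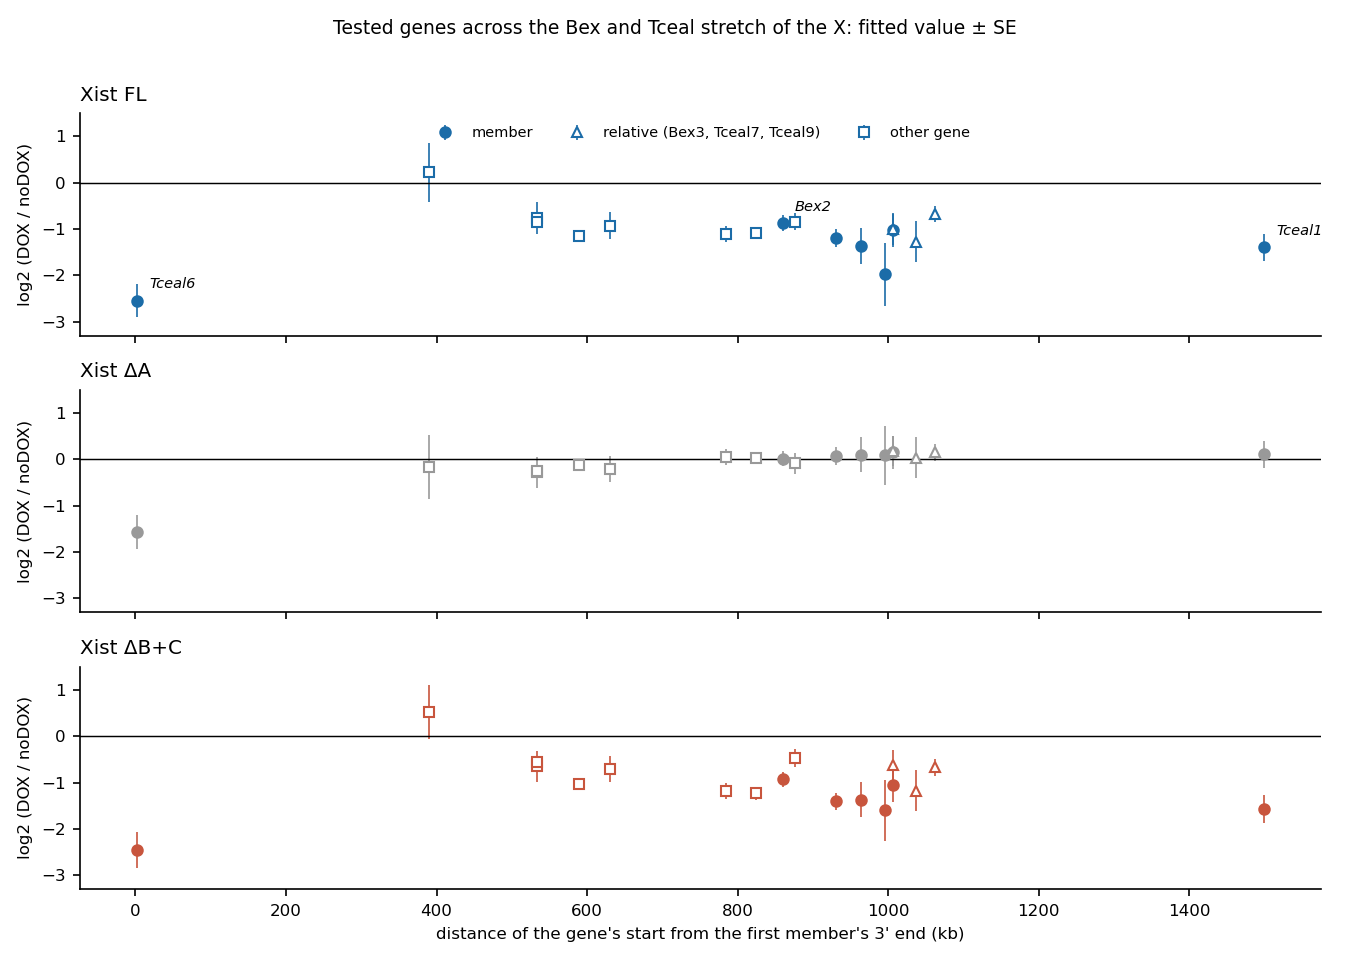
Log2 ratio of DOX to noDOX (fitted value ± SE) for the 18 tested genes of the stretch, by the distance of each gene's start from the 3′ end of *Tceal6* in kilobases; filled circles are members, triangles *Bex3*, *Tceal7* and *Tceal9*, and squares other genes. *Tceal6* at the left, which passed the filter only through its noDOX libraries and was so favoured for low values, is lowest in each line. In ΔA the remaining genes lie between −0.27 and 0.19.

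How much the responses differed between lines was also a function of the contrasts known beforehand. The responses were not adjusted for the share of cells with a *Xist*‐coated X, which was higher in ΔB+C than in FL. ΔB+C minus FL, the difference for *Bex4* was −0.22 (95% interval −0.83 to 0.40), for *Tceal6* 0.08 (−1.10 to 1.26), for *Bex1* −0.04 (−1.19 to 1.10) and for *Tceal5* 0.38 (−1.76 to 2.51). The block narrowed these intervals, for *Bex2* to −0.33 to 0.20 and for *Bex4* to −0.52 to 0.08. No member was called with either fit, nor with DESeq2 or limma‐voom, 0 had an unadjusted p under 0.05, and 0% of all genes were called with either edgeR fit, so a difference was not detectable and smaller ones than these intervals remain possible. ΔA minus FL was positive for all 7, from 0.89 ± 0.23 in *Bex2* to 2.07 ± 0.93 in *Tceal5*. Without the block 0 of 7 were called, although 5 had an unadjusted p under 0.05 and DESeq2 called 1, against 0% of all genes. With the block 6 of 7 were called, against 3.31% of all genes and 171 of the 464 X‐linked ones in that direction. *Tceal6* was the exception, at 0.97 with an interval of −0.24 to 2.18. ΔB+C minus ΔA was negative for all 7, with 0 called without the block (5 at an unadjusted p under 0.05, and 2 by DESeq2), against 0.205% of all genes. The same 6 members, without *Tceal6*, were called with it, against 9.32% of all genes and 194 of the 464 X‐linked ones in that direction.

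The lines were then compared without DOX, a comparison the choice did not use as such although these libraries are the baseline of the DOX values. All 7 tested members had lower mean levels in ΔA than in FL, by 0.11 to 0.98 on the log2 scale, and 0 of 7 passed edgeR's test, against 9.84% of all genes. DESeq2 and limma‐voom called 0 as well, and *Tceal6* and *Tceal1* had unadjusted p‐values under 0.05. With the replicate block 4 of 7 passed, against 33.4%, a share of all genes too large for the count to stand out. They were *Bex4* (−0.38 ± 0.10, adjusted p = 0.0115, edgeR), *Tceal1* (−0.65 ± 0.20, adjusted p = 0.0270), *Tceal6* (−0.97 ± 0.30, adjusted p = 0.0275) and *Bex1* (−0.50 ± 0.15, adjusted p = 0.0343). Their adjusted p‐values without the block were 0.273, 0.193, 0.0816 and 0.405. In CPM, *Bex4* was at 156.2 ± 23.6 (SD, n = 2) in ΔA and 201.0 ± 3.81 in FL, *Tceal6* at 1.14 ± 0.213 and 2.27 ± 0.762, and *Tceal1* at 2.07 ± 0.480 and 3.23 ± 0.0827. *Tceal3*, in the fit without the filter, had −0.77 ± 0.48 (adjusted p = 0.44, edgeR). The CPM of *Bex1* was 334.6 ± 62.9 in ΔA and 478.2 ± 128.7 in FL. The relatives *Bex3*, *Tceal7* and *Tceal9* had −0.23, −0.13 and −0.28, and 0 of 3 passed with either edgeR fit. Of the 8 other tested genes of the stretch, 1 passed without the block and 3 with it. *Arxes1* (0.32 ± 0.10, adjusted p = 0.0353, edgeR with the block) and *Arxes2* (0.33 ± 0.12, adjusted p = 0.048) were higher in ΔA, and without the block their adjusted p‐values were 0.177 and 0.283. The one that passed with either fit was *Nxf3*, an RNA export factor gene, at −3.33 ± 0.21 (adjusted p = 7.03e-05, edgeR). *Xist* itself was at 7.31 ± 1.36 CPM in ΔA noDOX and at 2.74 ± 0.367 CPM in FL noDOX, and its part in these differences was not tested.

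ΔB+C and FL, which share their parental cells, differed less. Without DOX the 7 values of ΔB+C minus FL ran from −0.54 in *Tceal6* to 0.11 in *Tceal5*, and 0 of 7 passed with either edgeR fit, with DESeq2 or with limma‐voom or had an unadjusted p under 0.05, against 0.0227% of all genes without the block and 0.993% with it. With the block the 95% interval was −0.23 to 0.14 for *Bex2*, −0.25 to 0.18 for *Bex4* and −0.38 to 0.31 for *Bex1*, and for *Tceal6* it was −1.16 to 0.10. Of the 8 other tested genes of the stretch, 0 passed without the block and 1 with it. That gene was *Nxf3*, at −1.30 ± 0.17 (adjusted p = 0.00479, edgeR with the block, and 0.186 without it). ΔB+C minus ΔA was positive for all 7 members, from 0.06 in *Bex2* to 0.57 in *Tceal1*. It passed for 0 of 7 without the block, against 6.69% of all genes, with 0 at an unadjusted p under 0.05 and 0 by DESeq2 and limma‐voom. With the block it passed for *Bex4* alone (0.34 ± 0.10, adjusted p = 0.0218, edgeR), against 27.9%.

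**Figure D4:**
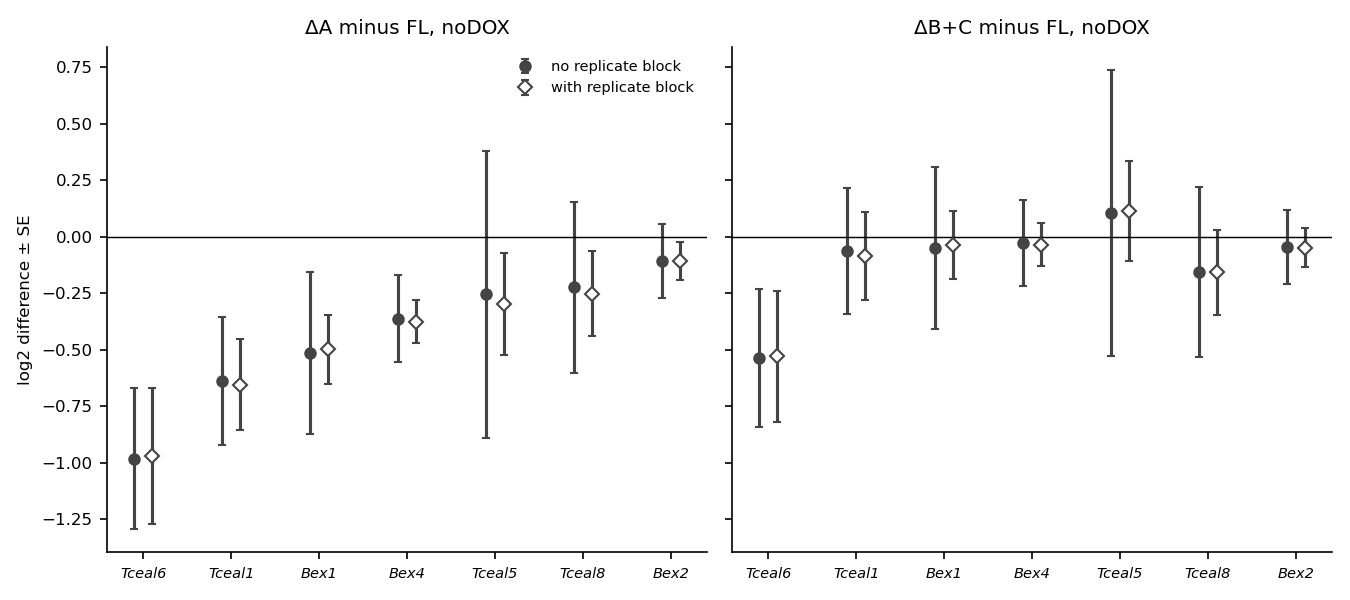
Log2 differences without DOX for the 7 tested members, ΔA minus FL at left and ΔB+C minus FL at right, each ± SE; filled circles are without and open diamonds with the replicate block. The ΔA values lie between −0.11 and −0.98, and the bars of ΔB+C cross 0 for 6 of the 7 members.

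Of the members, 6 were lower in replicate 2 than in replicate 1 whatever the line and treatment. The replicate coefficient, fitted over the 6 groups, was −1.03 ± 0.14 for *Tceal5* (adjusted p = 0.000247, edgeR), −0.57 ± 0.11 for *Tceal8* (adjusted p = 0.0042) and −0.56 ± 0.09 for *Bex1* (adjusted p = 0.00119). It was −0.36 ± 0.12 for *Tceal1* (adjusted p = 0.0333), −0.27 ± 0.06 for *Bex4* (adjusted p = 0.00246) and −0.23 ± 0.05 for *Bex2* (adjusted p = 0.00326). Each of these 6 was lower in replicate 2 in 6 of 6 groups. The share of all genes lower in each group was not computed, and replicate differences correlated between groups across autosomal genes. *Tceal6* had 0.00 ± 0.21 and was lower in 3 of 6 groups, and so was *Tceal3*. The 6 of 7 called lower stand against 23.5% of all genes and 41.8% of X‐linked genes. *Tceal1* lost its call with DESeq2, without the filter and without any 1 of the 8 ΔA and ΔB+C libraries.

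By group, the log2 ratio of replicate 2 to replicate 1 of *Tceal5* was −0.91 and −1.67 in FL without and with DOX, −1.25 and −0.53 in ΔA, and −0.85 and −1.40 in ΔB+C. For *Tceal8* it was −0.23 and −0.79 in FL, −0.54 and −0.60 in ΔA, and −0.25 and −1.09 in ΔB+C. *Bex1* had −0.56 and −1.01, −0.39 and −0.29, and −0.42 and −0.74 in the same order. For these 3 genes the ratio was further below 0 with DOX than without it in FL and ΔB+C, and that difference was not tested. Of the relatives, *Tceal9* had −0.72 ± 0.10 (adjusted p = 0.00102, edgeR) and *Bex3* −0.16 ± 0.08 (adjusted p = 0.145). Within the family *Tceal5*, *Tceal8*, *Tceal9* and *Bex1* thus had values below −0.5, and *Bex2*, *Bex3*, *Bex4* and *Tceal6* values above −0.3. *Tceal1* (−0.36) and *Tceal7* (−0.31) lay between.

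Marker genes moved with the replicate number too. Of all tested genes, 23.5% were called lower in replicate 2, and the share called higher was not computed. The marker counts are therefore given as a description. Of 8 pluripotency markers 6 were higher in replicate 2, with a median log2 difference of 0.60, and their summed level was 2236 to 2917 CPM in replicate 1 libraries and 2749 to 3931 CPM in replicate 2 libraries. All 3 tested mesendoderm markers were lower, *T* by 1.38 and *Mixl1* by 1.39 on the log2 scale, and the summed level of the 4 listed was 47.5 to 241.1 CPM in replicate 1 and 36.4 to 175.4 CPM in replicate 2. Of 5 tested neural markers 3 were higher and 2 lower, *Nes* among the latter, and their sum of 154.0 to 247.4 CPM in replicate 1 and 169.2 to 249.3 CPM in replicate 2 overlapped. Of 4 tested fibroblast markers 2 were lower, *Col1a1* and *Dcn*. The 6 listed summed to 10.4 to 54.2 CPM, with *Col1a1* at up to 38.1 CPM, *Thy1* at 5.19 to 10.3 CPM and *Lum* at 0.0794 CPM or less. Of 4 epiblast markers 1 was higher and 1 lower, and of 4 primitive endoderm markers 0 were called. Between DOX and noDOX, *Eomes* was called lower in FL (−1.59) and in ΔB+C (−1.38) and *Fgf5* in ΔB+C (−1.48), and no other of the 28 tested markers was called in any line. The part of cell state in the members' differences was not tested.

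**Figure D5:**
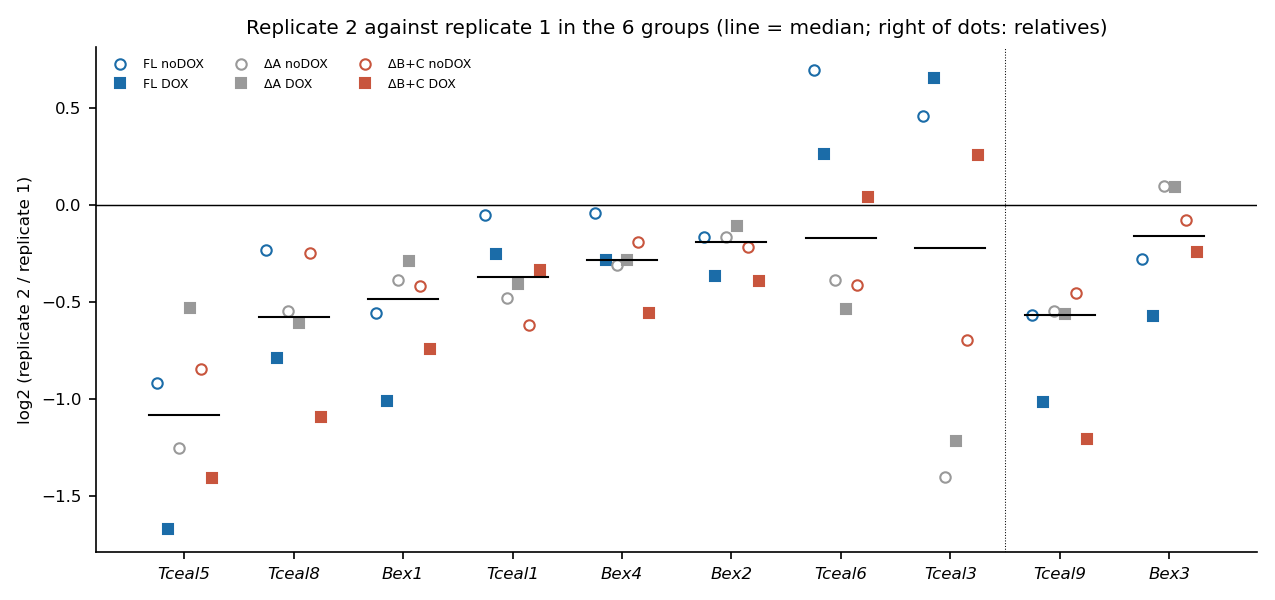
Log2 ratio of replicate 2 to replicate 1 in each of the 6 groups, open circles noDOX and filled squares DOX, colored by line; lines are medians over the 6 groups, and *Tceal9* and *Bex3* at right are relatives. All 6 points lie below 0 for *Tceal5*, *Tceal8*, *Bex1*, *Tceal1*, *Bex4*, *Bex2* and *Tceal9*, and 3 of 6 do so for *Tceal6* and *Tceal3*.

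Over the 12 libraries the members went up and down together to unlike degrees. Pearson's r of log2(CPM + 1), given as a description, was 0.980 between *Bex2* and *Bex4*, 0.978 between *Bex2* and *Tceal8* and 0.953 between *Bex1* and *Tceal5*. *Tceal3* and *Tceal6*, which share sequence, had 0.935 with each other, and with members other than *Tceal1* they had 0.581 to 0.757. The lowest value was that of *Tceal5* and *Tceal6*, although reads could be shared there as well. These libraries share lines, DOX and replicate number. Within FL and within ΔB+C, the DOX libraries lay below the noDOX libraries for each member. Among 10548 other genes whose mean was 5 CPM or more, genes with the highest r to the mean of the 7 tested members included *Rlim* (0.985), *Plp2* (0.984), *Htatsf1* (0.981) and *Zfp280c* (0.978), all on the X.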

How the data were processed

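RNA‐seq counts of 12 libraries were analysed. Per the labels and methods, the authors mapped 150‐base read pairs to mm10 with TopHat 2.1.0 (1 alignment kept per read, 5 mismatches, refFlat annotation), counted pairs over exons with featureCounts 1.5.1 and deposited the counts without normalization, 1 file per library. Reads from near‐identical genes could be placed in either. Groups came from the labels.

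The 13191 genes that reached 1 CPM in 6 or more libraries were fitted with edgeR 4.0.16 in R 4.3.3 (quasi‐likelihood test, robust, 6 group means, Benjamini–Hochberg adjustment over all genes, threshold 0.05), with TMM factors (0.978 to 1.022) from expressed autosomal genes. Intervals are 95%, and p‐values measure only the spread between libraries, which the study calls biological duplicates. Replicate differences correlated across 12721 autosomal genes in all 15 pairs of groups (r 0.405 to 0.838), so a second fit used the replicate number from the labels as a block. Alternatives were DESeq2 1.42.0, limma‐voom (limma 3.58.1), 2 scalings, 2 filters, the compared lines alone and leaving out each library. The fits were tested on simulated counts. Members and lists, and the rule naming members, relatives, genes between them, TFIIS genes, *Ngfr* and the 5 most alike genes, were chosen with earlier results of these data known. A result for 1 of the most alike genes is not reported here.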

Additional observations from a re-analysis of the deposited data

Results flagged for a closer look

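When the replicate number was a block, the response to DOX differed between lines for 6 of the 7 tested members at an adjusted p under 0.05 (edgeR), which is what marked them for a closer look. ΔA minus FL, the log2 differences were 1.23 for *Bex1*, 0.89 for *Bex2*, 1.29 for *Bex4*, 1.51 for *Tceal1*, 2.20 for *Tceal5* and 1.51 for *Tceal8*. ΔB+C minus ΔA, they were −1.26 for *Bex1*, −0.96 for *Bex2*, −1.51 for *Bex4*, −1.68 for *Tceal1*, −1.83 for *Tceal5* and −1.54 for *Tceal8*. Both comparisons share the ΔA libraries, and the responses were known when the members were chosen, so the calls are not independent evidence. With the block 3.31% of all genes were called in the first comparison and 9.32% in the second, and 171 and 194 of the 464 X‐linked genes in the direction of the members. Without the block 0 of the 6 passed in either comparison, with unadjusted p‐values under 0.05 for 5 of them in each.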

How the results depend on the processing

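The number of members called lower with DOX in FL, 3, became 5 with DESeq2, 2 with the 5 CPM filter (4 members tested), 7 with the replicate block and 0 with the compared line's libraries alone, and ranged from 0 to 3 when a library was left out. In ΔB+C, 4 became 6 with DESeq2, 2 with the 5 CPM filter, 7 with the block and 0 with that line alone, and ranged from 0 to 4. The response differences, 0 in the reported fit, became 1 (DESeq2) and 6 (block) for ΔA minus FL and 2 and 6 for ΔB+C minus ΔA. Without DOX, the block moved 0 to 4 for ΔA minus FL and 0 to 1 for ΔB+C minus ΔA, and it changed no other count. The number called between replicates, 6, ranged from 5 to 6. The cause of these shifts was not tested. Uncalled differences changed sign when a library was left out, without DOX for *Tceal5* (−1.02 to 0.28) and *Tceal8* (−0.52 to 0.022) in ΔA minus FL, for *Bex1* (−0.30 to 0.25), *Bex2* (−0.16 to 0.057), *Bex4* (−0.13 to 0.063), *Tceal1* (−0.41 to 0.21) and *Tceal5* (−0.38 to 0.64) in ΔB+C minus FL, and for *Bex2* (−0.051 to 0.17), *Tceal5* (−0.13 to 1.13) and *Tceal8* (−0.18 to 0.36) in ΔB+C minus ΔA. The DOX difference in ΔA changed sign in 12 of 138 values, among them *Tceal5* (−0.40 to 0.85), *Tceal8* (−0.23 to 0.40) and *Bex1* (−0.02 to 0.36), and in 0 of 138 in FL and in ΔB+C. *Tceal6* between replicates became 0.028 with limma‐voom, 0.0035 with TMM from all genes and −0.27 to 0.12 without a library. A group left with 1 library was assumed to vary like the others. Of the DOX log2 values, 396 recomputed ones stayed within 1 SE and 18 did not. Among the members, counts were lowest in *Tceal1*, *Tceal3*, *Tceal5* and *Tceal6*, with 8 to 265 per library.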
